A study of Mus musculus with 7 samples.

Results

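The metalloproteinase genes of mouse lung and the genes of their inhibitors were described in 7 RNA sequencing libraries. Members were taken by symbol alone (Mmp, Adam or Adamts with a number and an optional letter, or Timp with a digit, without the Adamtsl genes), which gave 79 of the 22447 genes listed, namely 23 Mmp, 33 Adam, 19 Adamts and 4 Timp genes. The libraries were 3 lung tumors with the genotype EZH2 overexpression (tumors 1 to 3), 2 samples of normal lung with the same genotype (OE normal lung) and 2 samples of lung labelled WT for wild type (WT lung). EZH2 is the enzyme of the Polycomb complex PRC2 that methylates histone H3 and silences genes. Of strain, age, treatment, the promoter behind the EZH2 allele and the cells it acts in, the labels say nothing. The growth text of the labels speaks of minced tumor nodules in culture while the source is lung tissue, so which of them gave the RNA is not stated. Nothing in the labels says that replicates came from separate animals. Sex-linked genes, given with the library facts, place OE normal 1 and 2 in different animals, and tumor 1 in another than tumors 2 and 3. Where this is not known, as for tumors 2 and 3 and the WT lungs, the spread behind the p-values may be technical.

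Levels are FPKM, fragments per kilobase of transcript, scaled to a library's mapped fragments, a unit that divides by gene length. Differences are on the log2(FPKM + 1) scale, which understates the change of low genes, with the standard error (SE) and the Benjamini-Hochberg adjusted p of limma. A gene entered the fit when 2 or more of the 7 libraries listed it at 1 FPKM or higher, which left 14057 genes, and it was called higher or lower at an adjusted p under 0.05. In libraries of whole tissue, fewer cells of a type and less RNA per cell cannot be told apart.

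Matrix metalloproteinases (the Mmp genes) are zinc enzymes that are made with an inhibitory pro-domain and cut collagens, elastin, laminins and other matrix proteins once that domain is removed. The Adam genes encode membrane proteins with a metalloproteinase and a disintegrin domain, several of which cut growth factors, cytokines and adhesion molecules off the cell surface. The Adamts genes encode secreted relatives with thrombospondin repeats that process procollagens, fibrillin networks and proteoglycans such as versican and aggrecan. The tissue inhibitors of metalloproteinases (Timp genes) bind the active site of these enzymes, and in lung their balance with elastin-cutting and collagen-cutting enzymes is known from emphysema, fibrosis and tumor growth.

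The libraries listed 12028 to 12625 genes at 1 FPKM or more in the tumors and 13203 to 13567 in the normal lungs. Among members, 35, 26 and 27 reached 1 FPKM in tumors 1 to 3, 37 and 36 in OE normal lung and 32 and 33 in WT lung. Tumor 1 stood apart: its log2(FPKM + 1) values correlated across genes with those of tumors 2 and 3 at 0.897 and 0.894, against 0.970 between tumors 2 and 3. Ezh2 was at 8.48, 23.5 and 22.6 FPKM in the tumors, 10.2 and 11.5 in OE normal lung and 3.72 and 2.58 in WT lung. It was called higher in tumors than in WT lung (log2 difference 2.10, SE 0.43, adjusted p = 0.0119) and not between OE normal and WT lung (1.53, SE 0.47, adjusted p = 0.406). Eif2s3y, on the Y chromosome, was at 27.4 to 30.7 FPKM in tumor 1, OE normal 1 and both WT lungs and at 0.0903 or less in the others, so that tumor 1 also differed from tumors 2 and 3 in sex. Of 8 alveolar type 2 markers 7 were higher in the tumors in both comparisons and summed to 7883 to 12720 FPKM, against 1925 to 3168 FPKM in the normal lungs. The other, Sftpc, was at 35940 FPKM in tumor 1, listed at 0 in tumors 2 and 3 and at 10580 to 15910 FPKM in the normal lungs.

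Of the 79 members 40 were tested, 31 lay below the expression minimum and 8 were listed at 0 in every library. Against OE normal lung, 5 of the 40 tested members were higher and 18 were lower in the tumors (12.5% and 45.0%), where 13.1% and 24.9% of all 14057 genes were called higher and lower. Against WT lung, 6 were higher and 14 lower (15.0% and 35.0%), with 15.0% and 23.2% over all genes. Calls of higher level were thus near the background of all genes, and calls of lower level were above it in both comparisons, which share the tumor libraries. The median log2 difference of the tested members was -0.53 against OE normal lung and -0.44 against WT lung, with -0.11 and -0.06 over all genes.

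The families differed in their counts. Among Timp genes, 3 of 4 were lower and none higher in either comparison, Timp1 being the exception (median -1.29 and -1.35). Among 12 tested Mmp genes, 1 was higher and 5 lower against OE normal lung, and 1 and 3 against WT lung. Among 13 tested Adam genes the counts were 2 higher and 5 lower, and 3 and 3, and among 11 tested Adamts genes 2 higher and 5 lower in both comparisons. The split depended on the scaling of the libraries. Against OE normal lung, median-of-ratios scaling gave 9 higher and 18 lower of 43 members tested (18.1% and 22.3% of all genes), rescaling to TPM 8 and 23 of 49 (7.38% and 35.3%), and quantile normalization 9 and 14 of 40 (24.1% and 19.0%). The median of all genes moved from -0.11 to 0.05, -0.35 and 0.13. The median of the members then was -0.08, -0.68 and -0.02, below that of all genes under each scaling. Against WT lung, quantile normalization gave 9 higher and 13 lower of 40 (22.8% and 18.9% of all genes), with a median of -0.09 for the members and 0.11 for all genes.

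**Figure D1:**
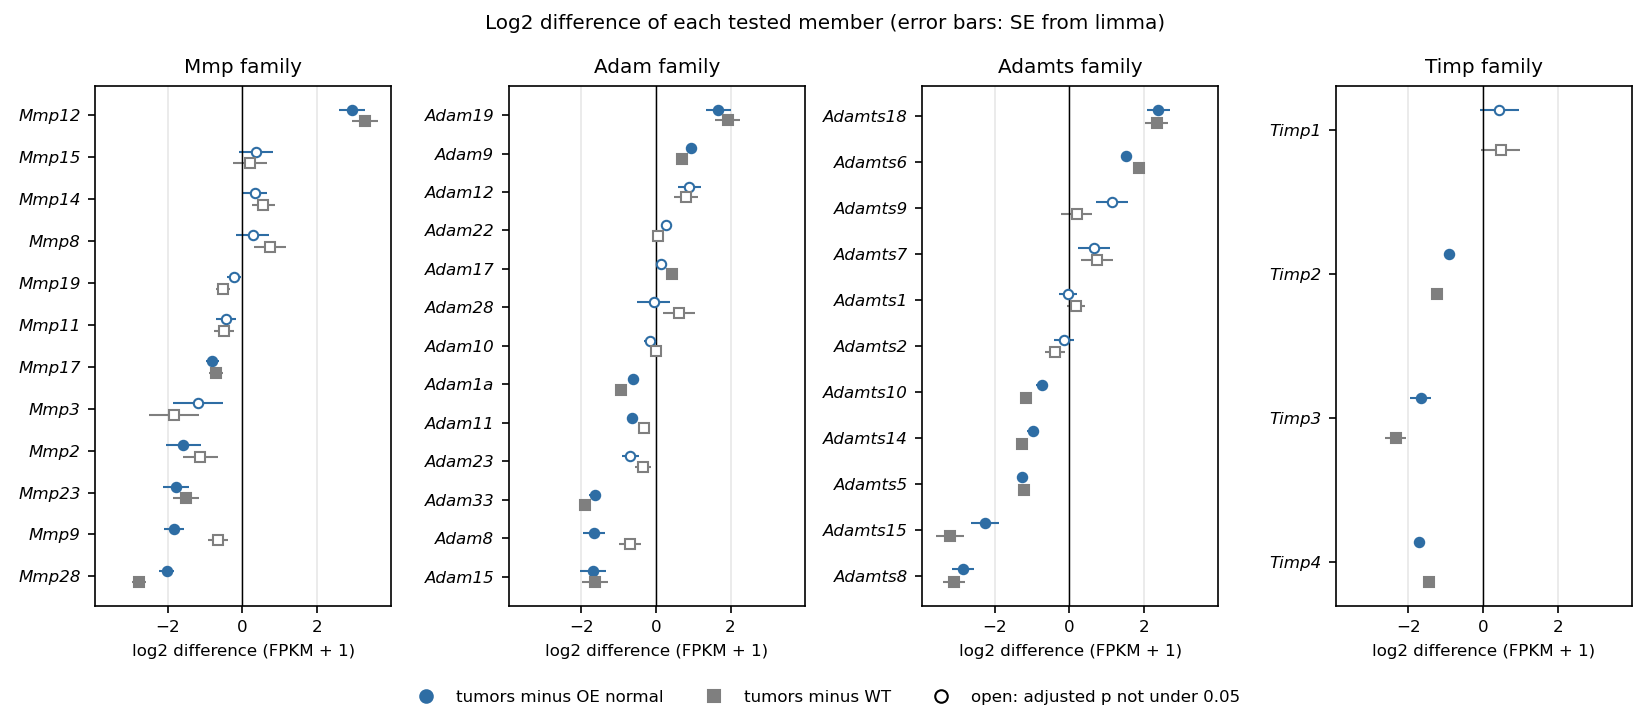
Log2 difference in log2(FPKM + 1), horizontal axis, for each tested member, 1 panel per family. Colors mark the comparison and error bars are the SE from limma. Mmp12, Adam19, Adamts6 and Adamts18 lie to the right of 0 in both tumor comparisons and Timp2, Timp3, Timp4, Mmp28, Adam33, Adamts8 and Adamts15 to the left.

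The summed level of the inhibitors was lowest in the tumors. Summed over the 4 Timp genes, FPKM was 184, 139 and 138 in tumors 1 to 3, 361 and 375 in OE normal lung and 559 and 501 in WT lung. Timp genes made up 27.9%, 30.2% and 29.0% of the summed FPKM of all members in the tumors, 47.5% and 49.0% in OE normal lung and 56.7% and 56.5% in WT lung. The 3 groups did not overlap in either measure, with tumors lowest and WT lung highest. The summed Adam level did overlap, at 155 to 207 FPKM in tumors and 151 to 178 FPKM in the normal lungs, as did the summed Mmp level, at 76.9 to 159 FPKM and 95.4 to 120.4 FPKM, and the summed Adamts level, at 79.1 to 108 FPKM and 100.4 to 138 FPKM. These sums are descriptions and were not tested.

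**Figure D2:**
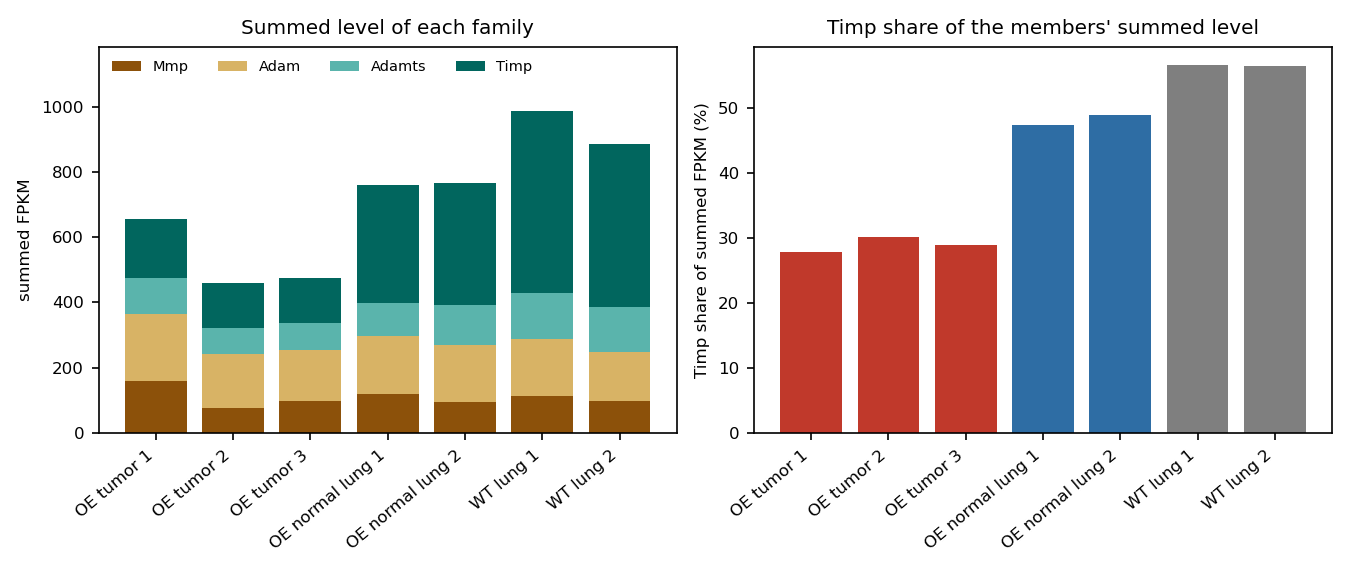
Left, summed FPKM of each family by library. Right, the share of the members' summed FPKM that came from Timp genes, in percent. The tumors sit between 27.9% and 30.2% and all normal lungs at 47.5% or more, while the Adam and Mmp sums overlap between tumors and normal lungs.

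Timp3, the inhibitor that binds to the matrix and also blocks Adam17 and aggrecan-cutting Adamts enzymes, was the most abundant member in the normal lungs. It was at 95.6, 55.2 and 55.1 FPKM in tumors 1 to 3, 191 and 236 in OE normal lung and 372 and 311 in WT lung. The groups did not overlap, and tumor 1 was the highest tumor. Timp3 fell in the tumors by 1.67 on the log2 scale against OE normal lung (SE 0.28, adjusted p = 0.00513, limma) and by 2.34 against WT lung (SE 0.28, adjusted p = 0.00156). Group means were 68.7 ± 23.4 FPKM (SD, n = 3), 214 ± 31.8 FPKM (SD, n = 2) and 342 ± 42.6 FPKM (SD, n = 2).

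Timp2, a secreted inhibitor that together with Mmp14 also takes part in the activation of pro-Mmp2, was even among tumors. Its levels were 73.0, 80.4 and 77.3 FPKM in the tumors, 161 and 133 in OE normal lung and 181 and 182 in WT lung. Every tumor was below every normal lung, and Timp2 fell by 0.92 (SE 0.13, adjusted p = 0.00265) and by 1.23 (SE 0.13, adjusted p = 9.76e-04) on the log2 scale. Timp4, the inhibitor best known from heart, was low throughout. It was at 0.120, 0.0561 and 0.0379 FPKM in the tumors, 2.63 and 2.40 in OE normal lung and 1.99 and 1.92 in WT lung, so that its tumor values were near 0. Timp4 fell by 1.71 (SE 0.12, adjusted p = 3.46e-04) and by 1.46 (SE 0.12, adjusted p = 4.63e-04). The calls of Timp2, Timp3 and Timp4 held in both comparisons under every alternative in which they were tested.

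Timp1, the inducible secreted inhibitor, did not follow the others. It was at 14.8, 3.73 and 5.01 FPKM in the tumors, 5.97 and 3.65 in OE normal lung and 3.84 and 5.31 in WT lung. Tumor 1 was above all other libraries, and tumors 2 and 3 lay within the range of the normal lungs. The log2 difference was 0.43 (SE 0.52, adjusted p = 0.547) against OE normal lung and 0.47 (SE 0.52, adjusted p = 0.509) against WT lung, and without tumor 1 it was -0.10 and -0.05. Markers of several cell types were lower in the tumors as well, those of the lung's interstitium and vessels among them. All 9 endothelial markers were lower in the tumors in both comparisons and summed to 94.5 to 116 FPKM, against 1046 to 1191 FPKM in the normal lungs. Of 9 fibroblast markers 4 were lower (summed 74.5 to 410.0 FPKM, tumor 1 highest, against 545 to 712 FPKM), but without Mfap4 the sum of tumor 1, 385 FPKM, was not below the 319 to 379.9 FPKM of the normal lungs. Of 8 smooth muscle and pericyte markers 6 were lower. Acta2, which was not called, was at 313 FPKM in tumor 1, and the other 7 summed to 46.2 to 90.6 FPKM in tumors and 234 to 469 FPKM in normal lungs. In addition, all 4 tested mesothelial markers were lower (0.208 to 8.23 FPKM against 58.0 to 109.8 FPKM). So were all 6 ciliated markers, 4 of 7 alveolar type 1 markers and 2 of 4 club markers in both comparisons. In the opposite direction, 1 alveolar type 1 marker was higher against OE normal lung and 1 club marker in both comparisons. The part of all these cells in the lower Timp levels was not tested.

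The start regions of Timp3 and Timp4 are shown because these called inhibitors have unlike promoters. Both are 300 bases of the RefSeq tables for GRCm38.p6, from 250 bases before to 50 bases after the start, 5′ to 3′ on the gene's strand (chr10:86300162-86300461, plus strand, and chr6:115252156-115252455, minus strand). Capitals mark CG dinucleotides.
Timp3: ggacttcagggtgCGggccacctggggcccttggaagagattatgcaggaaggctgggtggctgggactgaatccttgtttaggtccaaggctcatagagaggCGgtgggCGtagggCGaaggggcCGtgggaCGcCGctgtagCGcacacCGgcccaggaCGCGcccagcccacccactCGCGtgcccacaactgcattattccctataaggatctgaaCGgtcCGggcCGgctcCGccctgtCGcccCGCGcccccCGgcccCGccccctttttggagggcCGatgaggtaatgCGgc
Timp4: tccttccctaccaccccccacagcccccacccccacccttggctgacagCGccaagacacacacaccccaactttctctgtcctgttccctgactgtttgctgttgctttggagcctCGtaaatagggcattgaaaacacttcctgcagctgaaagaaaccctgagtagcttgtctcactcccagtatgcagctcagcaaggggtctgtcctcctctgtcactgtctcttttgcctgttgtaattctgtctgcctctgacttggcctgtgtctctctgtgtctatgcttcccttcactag
The Timp3 window held 24 CG dinucleotides at 67.0% G and C, and the Timp4 window 2 at 53.3%, where the median over 32851 windows of all genes was 7 at 52.7%. Timp2 had 25 at 68.7% and Timp1 8 at 55.0%. The called inhibitors thus lay on both sides of the median in CG number. Per the same tables Timp1 lies within Syn1, Timp3 within Syn3 and Timp4 within Syn2, and no strand setting is stated. Syn1 was at 0.0864 to 0.711 FPKM, and Syn3 at 0.572 to 1.30 FPKM and highest in tumors 2 and 3, where Timp3 was lowest. Syn2 was at 0.707, 1.76 and 1.80 FPKM in tumors 1 to 3, 2.98 and 3.1 in OE normal lung and 2.17 and 2.40 in WT lung. Its groups had the same order as those of Timp4, but within the tumors Syn2 was lowest and Timp4 highest in tumor 1. Reads that fall on both genes of this pair cannot be told apart.

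**Figure D3:**
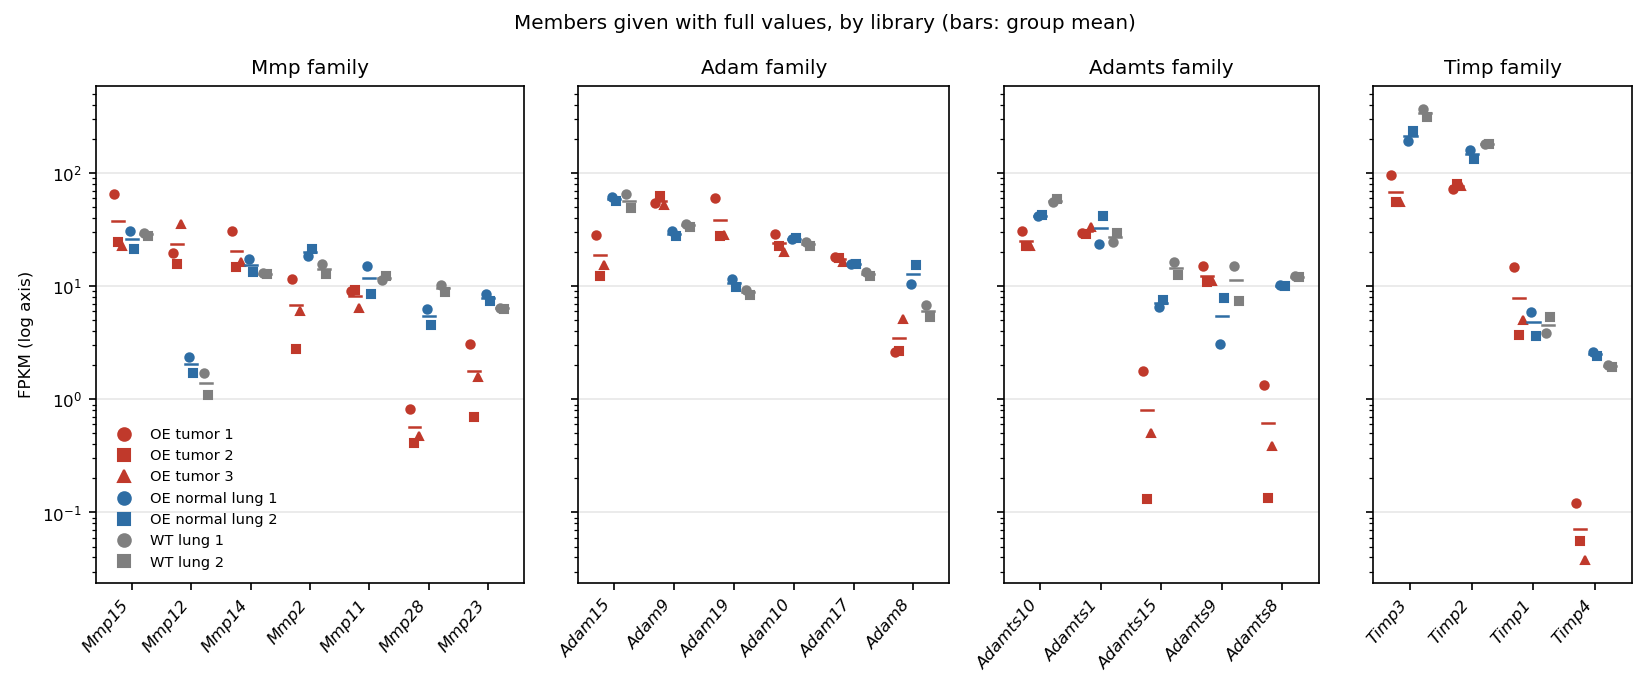
FPKM on a log axis for the 22 members given with full values, 1 panel per family. Each point is a library, colored by group and shaped by replicate number, and bars are group means. For Mmp12, Adam9 and Adam19 the tumors lie above both normal groups, and for Timp2, Timp3, Timp4, Mmp28, Adam15, Adamts8 and Adamts15 below. For Mmp15, Adam10 and Adamts1 the tumors overlap with each normal group. For Mmp14 they overlap with OE normal lung and lie above both WT lungs.

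Among the Mmp genes, Mmp12 alone was called higher with all libraries as deposited. Mmp12 encodes the macrophage elastase, which degrades elastin and is known from smoke-induced emphysema. It was at 19.6, 15.7 and 35.1 FPKM in tumors 1 to 3, 2.36 and 1.71 in OE normal lung and 1.70 and 1.08 in WT lung, so that the lowest tumor was above the highest normal lung. The mean in tumors, 23.5 ± 10.3 FPKM (SD, n = 3), was 11.6 times that of OE normal lung, 2.03 ± 0.460 FPKM (SD, n = 2), and 16.8 times that of WT lung, 1.39 ± 0.439 FPKM (SD, n = 2). The log2 differences were 2.94 (SE 0.34, adjusted p = 0.00151) and 3.29 (SE 0.34, adjusted p = 0.00105), called under every alternative. Of 13 macrophage markers, 2 were higher and none lower against OE normal lung, and 6 were higher and none lower against WT lung. Most of their summed level came from Lyz2, which was at 2400, 577 and 728 FPKM in tumors 1 to 3 and 2312 to 4003 FPKM in the normal lungs. The other 12 summed to 1500.0, 602 and 1174 FPKM in tumors 1 to 3, to 464.5 and 544 FPKM in OE normal lung and to 244 and 178 FPKM in WT lung. Every tumor was thus above every normal lung, but the largest of the 12 in each library was Chi3l3. It was at 1084, 364 and 864 FPKM in tumors 1 to 3, 181 and 167 in OE normal lung and 92.7 and 68.3 in WT lung. Without Chi3l3 as well, tumors and OE normal lung overlap. The median log2 difference of the 13 markers was 0.17 against OE normal lung and 0.86 against WT lung. The part of macrophages in the Mmp12 level was not tested.

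The gelatinases, which cut denatured and basement membrane collagen, were called lower against OE normal lung. Mmp2 was at 11.7, 2.79 and 6.06 FPKM in the tumors, 18.6 and 21.2 in OE normal lung and 15.6 and 12.9 in WT lung, with tumor 1 close to the normal lungs. It fell against OE normal lung by 1.58 on the log2 scale (SE 0.47, adjusted p = 0.0415) and missed the threshold against WT lung (-1.12, SE 0.47, adjusted p = 0.107). With the replicate number entered as a block, the call against OE normal lung was lost (adjusted p = 0.0914). The first call was lost when any library other than tumors 1 and 2 was left out, with adjusted p from 0.0750 to 0.179, and with only the groups compared (0.0753) or no filter (0.0620), and a call against WT lung was gained without tumor 1 (adjusted p = 0.00603). Mmp9, a product of neutrophils and macrophages that was added after its values were seen, was at 0.833, 0.0991 and 0.111 FPKM in the tumors, 4.19 and 3.14 in OE normal lung and 0.953 and 1.15 in WT lung. OE normal lung was the high group, and the tumors were below all normal lungs. Mmp9 fell against OE normal lung by 1.83 (SE 0.26, adjusted p = 0.00319), and against WT lung the difference was -0.65 (SE 0.26, adjusted p = 0.0992), with an adjusted p of 0.00345 without tumor 1. Of 5 tested neutrophil markers 3 were lower in tumors than in OE normal lung and none than in WT lung. Their list summed to 12.0 to 30.8 FPKM in tumors, to 223 and 60.8 FPKM for OE normal lungs 1 and 2 and to 19.1 to 25.8 FPKM in WT lung, with Mpo listed at 0 in all tumors. Whether neutrophils set the Mmp9 level was not tested.

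Mmp28 (epilysin), an enzyme made by epithelia and active in wound repair, had the largest fall of the family on the log2(FPKM + 1) scale. It was at 0.825, 0.413 and 0.471 FPKM in the tumors, 6.30 and 4.58 in OE normal lung and 10.2 and 8.96 in WT lung. All tumors were under 1 FPKM and no groups overlapped. Mmp28 fell by 2.03 (SE 0.19, adjusted p = 7.21e-04) and by 2.76 (SE 0.19, adjusted p = 2.87e-04) on the log2 scale. By the ratio of means against OE normal lung, Mmp9 fell more, 10.55 times against 9.54 times for Mmp28. Mmp28 shares part of its span with 1700020L24Rik, which was at 1.11, 0.581 and 0.813 FPKM in the tumors and 5.15 to 11.1 FPKM in the normal lungs. With no strand setting stated, reads of this pair, which had the same order of groups, cannot be told apart. Mmp23, which is anchored in the membrane by its pro-domain, was at 3.08, 0.691 and 1.57 FPKM in the tumors, 8.51 and 7.36 in OE normal lung and 6.43 and 6.32 in WT lung. It was lower in every tumor than in every normal lung and fell by 1.77 (SE 0.35, adjusted p = 0.0104) and by 1.50 (SE 0.35, adjusted p = 0.0191). Leaving out either library of the normal group ended both Mmp23 calls (adjusted p from 0.0564 to 0.102), as did leaving out tumor 3 against WT lung (0.0542). Mmp23 overlaps Mib2 in the RefSeq tables, which was at 4.51 to 8.57 FPKM in tumors and 10.3 to 12.4 FPKM in normal lungs.

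The membrane-type enzymes Mmp14 and Mmp15 were not called. Mmp14, which cuts collagen at the cell surface and activates pro-Mmp2, was at 30.5, 14.8 and 16.4 FPKM in the tumors, 17.3 and 13.3 in OE normal lung and 13.1 and 12.8 in WT lung. Mmp15, its close relative, had the highest mean of the Mmp genes in each group and was at 65.4, 24.4 and 22.9 FPKM, 30.8 and 21.5 and 29.8 and 28.0 in the same order. In both genes tumor 1 was the highest library and tumors 2 and 3 were near the normal lungs. The log2 differences of Mmp14 were 0.34 (SE 0.31, adjusted p = 0.416) and 0.56 (SE 0.31, adjusted p = 0.199). Those of Mmp15 were 0.36 (SE 0.46, adjusted p = 0.566) and 0.20 (SE 0.46, adjusted p = 0.757), and without tumor 1 they were -0.12 and -0.28. Mmp17, which is held by a glycolipid anchor and was added after its values were seen, was at 0.0781 to 0.538 FPKM in tumors and 0.938 to 1.21 FPKM in normal lungs. Mmp17 fell by 0.80 (SE 0.18, adjusted p = 0.0168) and by 0.70 (SE 0.18, adjusted p = 0.0269), and each call was lost in 6 of 14 alternatives.

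Mmp11 (stromelysin-3), which furin activates inside the cell, was at 9.10, 9.31 and 6.40 FPKM in the tumors, 15.2 and 8.59 in OE normal lung and 11.4 and 12.3 in WT lung. The tumors overlapped with OE normal lung and were below both WT lungs. The log2 differences were -0.44 (SE 0.26, adjusted p = 0.229) and -0.49 (SE 0.26, adjusted p = 0.187). Mmp19, an enzyme of basement membrane turnover, was at 5.07 to 7.16 FPKM in tumors and 6.35 to 9.86 FPKM in normal lungs. Its tumors also overlapped with OE normal lung and were below both WT lungs. Mmp19 was called lower against WT lung without tumor 1 (adjusted p = 0.00952) and with TPM (0.0366).

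Mmp12 lies in a run of 10 neighbouring Mmp genes on chromosome 9, in the RefSeq order Mmp13, Mmp12, Mmp1b, Mmp3, Mmp1a, Mmp10, Mmp8, Mmp27, Mmp20 and Mmp7. Of these, 3 were tested and Mmp12 was the one called with all libraries as deposited and without a block for replicate number. Mmp3 (stromelysin-1) was at 4.19, 0.475 and 0.484 FPKM in the tumors, 5.78 and 2.82 in OE normal lung and 11.2 and 4.28 in WT lung, with tumor 1 within the normal range and tumors 2 and 3 below it. Mmp8 (neutrophil collagenase) was at 3.27, 0.744 and 0.689 FPKM in the tumors, 1.41 and 0.524 in OE normal lung and 0.411 and 0.373 in WT lung, highest in tumor 1. The log2 differences of Mmp3 were -1.18 (SE 0.67, adjusted p = 0.212) and -1.84 (SE 0.67, adjusted p = 0.0758), and those of Mmp8 0.28 (SE 0.44, adjusted p = 0.645) and 0.74 (SE 0.44, adjusted p = 0.231). Without tumor 1, Mmp3 was called lower against OE normal lung (-1.78, SE 0.45, adjusted p = 0.0167) and against WT lung (-2.44, SE 0.45, adjusted p = 0.00547). With the replicate number entered as a block, Mmp3 was called lower against WT lung (-1.54, SE 0.30, adjusted p = 0.0303). Mmp8 was called higher against WT lung with quantile normalization (adjusted p = 0.0360). Below the minimum, Mmp10 (stromelysin-2) was at 0.297 to 1.78 FPKM in tumors and 0.137 to 0.378 FPKM in normal lungs, and Mmp13 (collagenase-3) at 0.321 to 1.38 and 0.0828 to 0.932 FPKM. Mmp7 (matrilysin), an epithelial enzyme, was listed at 0 in all tumors and reached 0.117 FPKM in 1 or more normal lungs, and Mmp1a, Mmp1b and Mmp20 were listed at 0 in every library.

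**Figure D4:**
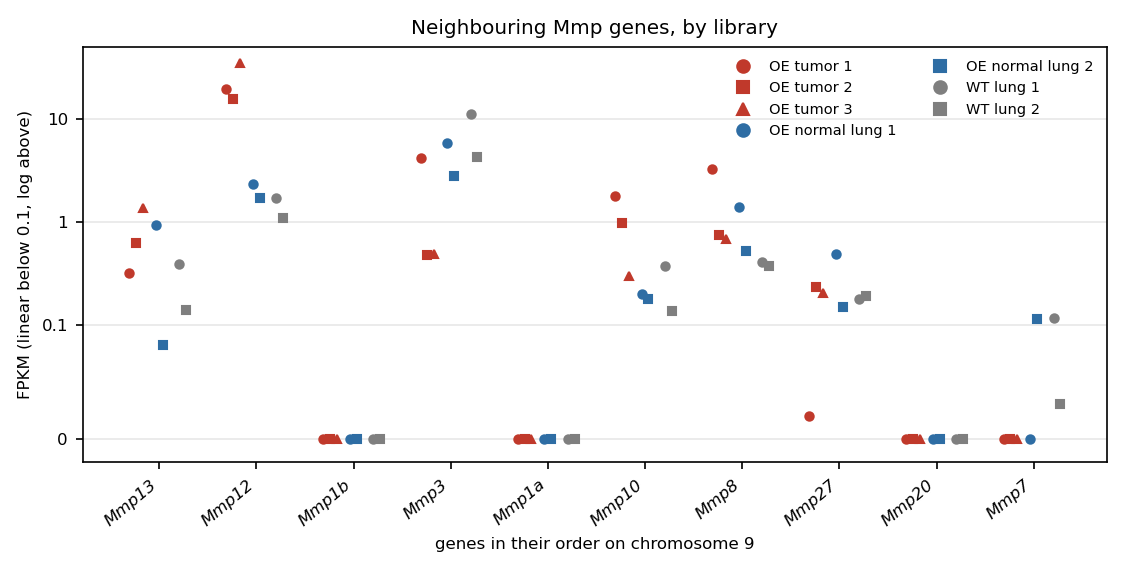
FPKM of the 10 neighbouring Mmp genes in their order on chromosome 9 (vertical axis linear below 0.1 FPKM and logarithmic above). Points are libraries colored by group. Mmp12 stands out with tumors at 15.7 to 35.1 FPKM above normal lungs at 1.08 to 2.36 FPKM, and its neighbours overlap between the groups or are listed at 0.

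The run is known for AP-1 sites close to the start, the binding sites of Fos and Jun factors, and the start regions are shown to set Mmp12 beside its neighbours. The motif searched was TGANTCA on both strands, which as a palindrome is counted once. Each line gives 150 bases of the RefSeq tables (GRCm38.p6, plus strand, 120 bases before to 30 after the start) with the motif in capitals, for Mmp13 at chr9:7272394-7272543, Mmp12 at chr9:7347254-7347403, Mmp3 at chr9:7445702-7445851, Mmp10 at chr9:7502222-7502371, Mmp8 at chr9:7558309-7558458 and Mmp7 at chr9:7691970-7692119.
Mmp13: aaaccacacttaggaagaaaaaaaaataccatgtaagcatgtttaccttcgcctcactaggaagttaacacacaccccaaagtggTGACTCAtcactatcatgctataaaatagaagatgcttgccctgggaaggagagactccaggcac
Mmp12: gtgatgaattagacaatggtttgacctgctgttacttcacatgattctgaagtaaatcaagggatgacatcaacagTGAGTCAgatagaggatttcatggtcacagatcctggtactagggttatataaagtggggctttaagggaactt
Mmp3: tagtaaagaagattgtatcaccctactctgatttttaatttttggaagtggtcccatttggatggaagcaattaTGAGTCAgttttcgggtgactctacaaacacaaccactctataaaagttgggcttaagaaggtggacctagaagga
Mmp10: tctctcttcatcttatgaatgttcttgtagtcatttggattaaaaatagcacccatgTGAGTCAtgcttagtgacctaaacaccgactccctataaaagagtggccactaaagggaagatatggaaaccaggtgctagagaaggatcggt
Mmp8: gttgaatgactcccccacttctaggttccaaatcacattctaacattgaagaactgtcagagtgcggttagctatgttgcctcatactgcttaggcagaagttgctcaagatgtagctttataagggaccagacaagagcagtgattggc
Mmp7: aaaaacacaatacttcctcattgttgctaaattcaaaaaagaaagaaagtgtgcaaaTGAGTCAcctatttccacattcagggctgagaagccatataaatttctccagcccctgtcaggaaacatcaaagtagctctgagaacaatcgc
For Mmp12 and Mmp7, 1 of 2 listed starts is shown, picked because its window held the motif, which the window of the other start did not. The motif began 35 bases before the start in Mmp13, 44 in Mmp12, 46 in Mmp3 and 63 in Mmp10 and Mmp7, and was not among the letters of the Mmp8 window. Over windows of 300 bases, 8 of the 10 genes of the run held it in 1 or more windows, between 35 and 95 bases before the start. Counted in the same way by gene, 2425 of 27025 genes held it. By window, the motif was in 7.81% of 32851 windows of all genes. It was in 8 of 21 Mmp windows, 5 of 19 Adam windows and none of 10 Adamts or 4 Timp windows, counting the 49 members with a window. The motif was thus found at Mmp12 and also at neighbours such as Mmp13, Mmp10 and Mmp7, whose levels were low in the same tumors. Its part in these levels was not tested.

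Among the Adam genes, several that shed surface proteins were among the most abundant, and calls went in both directions. Adam9, a sheddase of heparin-binding EGF-like growth factor, was at 54.9, 62.7 and 52.0 FPKM in tumors 1 to 3, 30.5 and 27.8 in OE normal lung and 35.7 and 33.6 in WT lung. All tumors were above all normal lungs and close to each other, with a mean of 56.5 ± 5.52 FPKM (SD, n = 3). Adam9 rose by 0.93 on the log2 scale against OE normal lung (SE 0.12, adjusted p = 0.00238) and by 0.69 against WT lung (SE 0.12, adjusted p = 0.00733), the latter lost without WT 2 (adjusted p = 0.0742). Its neighbours on chromosome 8 in the RefSeq order, Adam18, Adam3, Adam5 and Adam32, are genes known from testis and lay below the minimum.

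Adam19 (meltrin beta), which can shed neuregulins, had the largest rise of the family on the log2(FPKM + 1) scale. It was at 60.0, 27.9 and 28.2 FPKM in the tumors, 11.5 and 9.90 in OE normal lung and 9.27 and 8.39 in WT lung. Tumor 1 was far above tumors 2 and 3, and these were still above every normal lung. Adam19 rose by 1.67 (SE 0.34, adjusted p = 0.0112) and by 1.92 (SE 0.34, adjusted p = 0.00690). The calls were lost without OE normal 1 (adjusted p = 0.0567), OE normal 2 (0.0779) or, against WT lung, WT 2 (0.0565). Adam12 (meltrin alpha), its relative, was at 3.04, 1.13 and 0.952 FPKM in the tumors and 0.344 to 0.490 FPKM in the normal lungs, with all tumors above. Its differences of 0.90 (SE 0.32, adjusted p = 0.0688) and 0.80 (SE 0.32, adjusted p = 0.0937) missed the threshold. Adam12 was called higher against OE normal lung with a pseudocount of 0.1 (adjusted p = 0.0388), median-of-ratios scaling (0.0416) and quantile normalization (0.00607), and against WT lung with the last (0.00912).

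Adam17, the enzyme that releases tumor necrosis factor and several EGF receptor ligands, had small differences. It was at 18.0, 17.8 and 16.4 FPKM in the tumors, 15.8 and 15.7 in OE normal lung and 13.4 and 12.2 in WT lung. The tumors were above the normal lungs by a small margin, with a log2 difference of 0.14 (SE 0.11, adjusted p = 0.345) against OE normal lung and a rise of 0.42 (SE 0.11, adjusted p = 0.0266) against WT lung. That call was lost in 8 of 15 alternatives, among them leaving out either WT library (adjusted p = 0.106 and 0.197), tumor 2 or 3 (0.0919 and 0.0573) or either OE normal library (0.0541 and 0.0542). Adam17 overlaps Iah1 in the RefSeq tables, which was at 34.9 to 74.9 FPKM in tumors and 19.4 to 31.7 FPKM in normal lungs. Adam10, which cuts Notch receptors and cadherins, was at 29.1, 22.8 and 20.1 FPKM in the tumors, 26.2 and 26.4 in OE normal lung and 24.6 and 22.7 in WT lung. The groups overlapped, and the differences were -0.15 (SE 0.17, adjusted p = 0.519) and 0.00 (SE 0.17, adjusted p = 0.991). Without tumor 1, Adam10 was called lower against OE normal lung (-0.29, SE 0.09, adjusted p = 0.0325).

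Adam15, an enzyme with an integrin-binding disintegrin domain found in endothelium and epithelium, was the most abundant Adam gene in normal lung. It was at 28.4, 12.3 and 15.6 FPKM in the tumors, 61.4 and 56.2 in OE normal lung and 65.5 and 48.8 in WT lung. All tumors were below all normal lungs, tumor 1 being the closest. Adam15 fell by 1.68 (SE 0.34, adjusted p = 0.0109) and by 1.63 (SE 0.34, adjusted p = 0.0126). Leaving out either library of the normal group ended each call, with adjusted p of 0.0728 and 0.0614 without OE normal 1 and 2 and 0.0905 and 0.0511 without WT 1 and 2. Adam8, which is made by leukocytes, was at 2.63, 2.69 and 5.14 FPKM in the tumors, 10.5 and 15.4 in OE normal lung and 6.86 and 5.32 in WT lung. OE normal lung was again the high group, as for Mmp9. Adam8 fell against OE normal lung by 1.66 (SE 0.29, adjusted p = 0.00676, lost without OE normal 2 at 0.0571) and the difference from WT lung was -0.70 (SE 0.29, adjusted p = 0.109, called without tumor 3 at 0.0376). All 8 lymphocyte markers were lower in tumors than in OE normal lung and 5 than in WT lung, with sums of 19.2 to 26.3 FPKM in tumors, 160.0 to 553 FPKM in OE normal lung and 50.6 to 98.3 FPKM in WT lung. Their part and that of neutrophils in the Adam8 level was not tested.

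The other called Adam genes, added after their values were seen, were low. Adam33, an enzyme of airway mesenchyme, was at 0.497 to 0.688 FPKM in tumors and 3.40 to 5.10 FPKM in normal lungs, and fell by 1.64 (SE 0.15, adjusted p = 7.12e-04) and by 1.91 (SE 0.15, adjusted p = 4.32e-04). Adam1a, a gene known from sperm with the close copy Adam1b, was at 1.18 to 1.51 and 2.35 to 3.79 FPKM and fell by 0.61 (SE 0.15, adjusted p = 0.0194) and by 0.94 (SE 0.15, adjusted p = 0.00423). Adam11, which lacks the catalytic zinc site, was at 0.416 to 0.735 and 0.879 to 1.42 FPKM, fell against OE normal lung by 0.63 (SE 0.14, adjusted p = 0.0156) and had a difference of -0.33 from WT lung (SE 0.14, adjusted p = 0.114). Under quantile normalization the difference from OE normal lung was 0.10 for Adam11 and 0.00 for Adam1a. With the replicate number entered as a block, both calls against OE normal lung were lost (adjusted p = 0.115 and 0.0895). The Adam1a call against OE normal lung was also lost without any 1 of tumor 2, tumor 3 or either OE normal library (adjusted p from 0.0641 to 0.118), and that of Adam11 without tumor 2 or 3 (0.0578 and 0.0552), while the Adam11 difference from WT lung was called without tumor 1 (0.0192). Adam22, Adam23 and Adam28 were not called with all libraries. For Adam28 the tumors overlapped with both normal groups. Every tumor was above both OE normal lungs for Adam22 and below both for Adam23, while the tumors overlapped with WT lung for both genes. Without tumor 1, Adam28 was called higher (adjusted p = 0.0182 and 5.16e-04) and Adam23 lower against OE normal lung (0.0475, and 0.0325 with TPM), and with quantile normalization Adam22 was called higher against OE normal lung (0.00661).

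The Adamts genes held both strong falls and strong rises. Adamts8, an angiogenesis-inhibiting enzyme known to be abundant in lung, was at 1.35, 0.135 and 0.385 FPKM in tumors 1 to 3, 10.3 and 9.95 in OE normal lung and 12.2 and 12.1 in WT lung. The normal lungs were close to each other, and all tumors were far below them. The mean of 0.623 ± 0.641 FPKM (SD, n = 3) in tumors was 16.3 times lower than the 10.1 ± 0.280 FPKM (SD, n = 2) of OE normal lung and 19.5 times lower than the 12.2 ± 0.0380 FPKM (SD, n = 2) of WT lung. Without tumor 1 the tumor mean was 0.260 FPKM, which was 39.0 and 46.8 times lower. Adamts8 fell by 2.85 (SE 0.30, adjusted p = 0.00114) and by 3.09 (SE 0.30, adjusted p = 8.51e-04) on the log2 scale.

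Adamts15, which cuts aggrecan and versican and is the neighbour of Adamts8 on chromosome 9 in the RefSeq order, was at 1.79, 0.132 and 0.507 FPKM in the tumors, 6.58 and 7.58 in OE normal lung and 16.5 and 12.6 in WT lung. Tumor 1 was the highest tumor for both neighbours, and the WT lungs were the highest libraries. Adamts15 fell by 2.26 (SE 0.38, adjusted p = 0.00543) and by 3.20 (SE 0.38, adjusted p = 0.00160). Adamts10, an enzyme of fibrillin microfibrils, stayed abundant. It was at 30.6, 22.6 and 22.5 FPKM in the tumors, 41.5 and 42.5 in OE normal lung and 55.5 and 58.7 in WT lung, with 3 separate groups. Adamts10 fell by 0.73 (SE 0.16, adjusted p = 0.0143) and by 1.16 (SE 0.16, adjusted p = 0.00268), the first lost without OE normal 1 or 2 (adjusted p = 0.0755 and 0.0857). All tumors also had the lower endothelial marker sums given for the Timp genes, and the part of those cells in the falls of Adamts8, Adamts15 and Adamts10 was not tested.

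The rises were in genes of lower level, added after their values were seen. Adamts6, the closest relative of Adamts10, was at 4.58, 4.79 and 4.23 FPKM in the tumors, 0.915 and 0.949 in OE normal lung and 0.624 and 0.407 in WT lung. The tumors were even and above all normal lungs, the opposite order to Adamts10, and Adamts6 rose by 1.52 (SE 0.13, adjusted p = 6.08e-04) and by 1.87 (SE 0.13, adjusted p = 3.17e-04). Adamts18, a gene with a role in the branching of lung and other epithelial organs, was at 7.35, 3.81 and 3.06 FPKM in the tumors, 0.0528 and 0.0407 in OE normal lung and 0.0564 and 0.102 in WT lung. It was near 0 in all normal lungs, at 0.102 FPKM or less, and above 3 FPKM in every tumor. Adamts18 rose by 2.38 (SE 0.31, adjusted p = 0.00208) and by 2.34 (SE 0.31, adjusted p = 0.00226), and the calls of both genes held under every alternative in which they were tested. Epithelial markers were higher in the tumors for 4 of 6 genes in each comparison, with 1 lower against WT lung, and summed to 556 to 805 FPKM, against 287 to 425 FPKM in the normal lungs, and their part in these rises was not tested.

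Among the enzymes that cut versican and aggrecan, Adamts1 and Adamts9 were not called. Adamts1 was at 29.6, 28.7 and 33.2 FPKM in the tumors, 23.8 and 41.9 in OE normal lung and 24.6 and 29.4 in WT lung, with log2 differences of -0.05 (SE 0.24, adjusted p = 0.881) and 0.17 (SE 0.24, adjusted p = 0.602). Adamts9 was at 15.2, 10.8 and 11.2 FPKM in the tumors, 3.07 and 7.93 in OE normal lung and 15.2 and 7.40 in WT lung, with differences of 1.14 (SE 0.42, adjusted p = 0.0760) and 0.19 (SE 0.42, adjusted p = 0.747). In both genes OE normal 1 was well below OE normal 2. The groups overlapped for Adamts1, while for Adamts9 every tumor was above both OE normal lungs and the tumors overlapped with WT lung. The first Adamts9 difference was called without OE normal 2 (adjusted p = 0.0466), with median-of-ratios scaling (0.0430) and with quantile normalization (0.0396). Adamts5, the main aggrecan-cutting enzyme of mouse cartilage and the neighbour of Adamts1, was at 0.193 to 0.336 FPKM in tumors and 1.98 to 2.21 FPKM in normal lungs and fell by 1.28 (SE 0.13, adjusted p = 8.40e-04) and by 1.23 (SE 0.13, adjusted p = 9.65e-04). Of the procollagen-processing enzymes, Adamts14 was at 0.0789 to 0.132 and 1.04 to 1.83 FPKM and fell by 0.99 (SE 0.14, adjusted p = 0.00272, lost with quantile normalization at 0.236) and by 1.26 (SE 0.14, adjusted p = 0.00119), while Adamts2 overlapped at 4.72 to 8.46 and 5.43 to 8.55 FPKM and was called lower against WT lung without tumor 1 (0.0278). Adamts5 and Adamts14 were added after their values were seen. Adamts7, an enzyme of cartilage and vessel wall, was at 4.56, 1.26 and 1.08 FPKM in the tumors and 0.677 to 1.07 FPKM in the normal lungs and was not called, except with quantile normalization (adjusted p = 0.0237 and 0.0292).

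The 31 members below the minimum were not tested, and most were near 0 throughout. Adamts4, an aggrecan-cutting enzyme, was at 2.99, 0.932 and 0.755 FPKM in the tumors and 0.110 to 0.180 FPKM in the normal lungs. Adamts12 was at 0.495 to 1.13 and 0.127 to 0.196 FPKM, and Adam4 at 0.948 to 1.00 and 0.274 to 0.492 FPKM. In these 3 genes every tumor was above every normal lung, as in 5.69% of all 5347 genes below the minimum that were not listed at 0 throughout. In the opposite direction, which held for 24.5% of those genes, every tumor was below every normal lung for Mmp16, Mmp25, Adam1b, Adam3, Adam5, Adam6a, Adam6b, Adam32, Adamts3, Adamts13, Adamts17, Adamts19 and Adamts20. Mmp25, a leukocyte enzyme, was at 0.280 to 0.483 and 0.616 to 1.13 FPKM, and Adamts13, which cuts von Willebrand factor, at 0 to 0.0157 and 0.0553 to 0.331 FPKM. Adam20, Adam26a, Adam26b, Adam29, Adam34, Mmp1a, Mmp1b and Mmp20 were listed at 0 in all libraries. Reads of close copies (Adam1a and Adam1b, Mmp1a and Mmp1b, Adam26a and Adam26b, Adam6a and Adam6b) could be split between them in the counting, so these values are uncertain.

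Between OE normal and WT lung, no member was called by limma, and no gene of the 14057 was (0% called in either direction). At an unadjusted p under 0.05 there were 4 of 40 members and 1208 of 14057 genes. The 4 members were Mmp9, with a log2 difference of 1.18 (SE 0.29, adjusted p = 0.282), Adam8 with 0.96 (SE 0.32, adjusted p = 0.449), Mmp28 with -0.73 (SE 0.21, adjusted p = 0.353) and Adamts10 with -0.43 (SE 0.17, adjusted p = 0.566). Mmp9 and Adam8, both leukocyte products, were higher in each OE normal lung than in each WT lung, and Mmp28 and Adamts10 were lower. Timp3, with a difference of -0.68 (SE 0.30, adjusted p = 0.626), also did not overlap between the groups. The same held for other members, among them Timp2, Timp4, Adamts8 and Adamts15, and the share of all genes that separate in this way was not counted. The median over the members was 0.05 and over all genes 0.02. In a fit without tumor 1, Mmp9 was called (adjusted p = 0.0427), as were Adam28 in the same direction (0.0487) and Adamts10 in the other (0.0485), where 1.53% of all genes were called higher and 0.630% lower.

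Tumor 1 differed from tumors 2 and 3 in many members, which is given as a description with no test. It was the highest tumor for 27 of the 40 tested members (67.5%), against 55.5% of all genes tested. In the Mmp family this held for 10 of 12 genes, with Mmp12, highest in tumor 3, as one of the others. Tumor 1 had at least 2 times the level of both other tumors for 12 members (30%, against 14.4% of all genes), namely Adam12, Adam19, Adamts7, Adamts8, Adamts15, Mmp3, Mmp8, Mmp9, Mmp15, Mmp17, Timp1 and Timp4. It had at most 0.5 times the level of both for Adam23 and Adam28 (5.0%, against 7.03%). Adam28, a lymphocyte and airway enzyme, was at 3.22, 10.5 and 9.67 FPKM in the tumors. Tumor 1 also had the highest fibroblast marker sum of the tumors (410.0 FPKM, against 74.5 and 107) and the highest Acta2 level (313 FPKM, against 26.8 and 36.9), and the part of these cells, or of sex, was not tested. Without tumor 1, 6 of 38 members were higher and 21 lower against OE normal lung (26.8% and 41.9% of all genes), and 7 and 20 against WT lung (28.5% and 39.0% of all genes), so that calls rose over all genes.

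**Figure D5:**
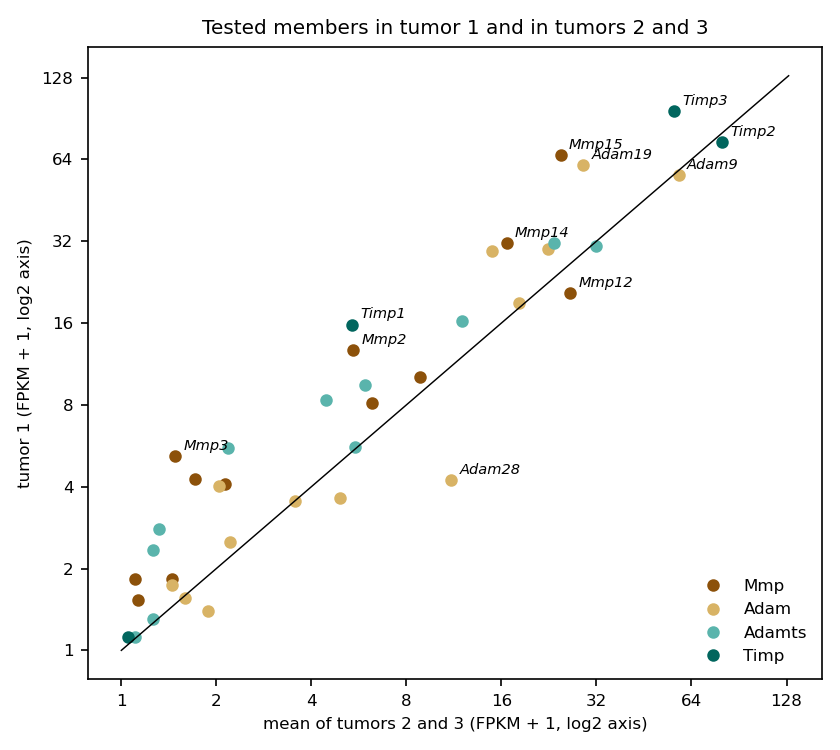
Each point is a tested member, with the mean FPKM + 1 of tumors 2 and 3 on the horizontal axis and FPKM + 1 of tumor 1 on the vertical axis (both log2 axes, colored by family). Points above the diagonal are higher in tumor 1, as for Mmp15, Adam19 and Timp1, and Adam28 lies below it.

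Genes that activate, hold or restrain these enzymes were read from a list of 30, of which 25 were tested. Against OE normal lung 3 were higher and 9 lower (median -0.23; all genes 13.1% and 24.9%), and against WT lung 4 and 9 (median -0.30; all genes 15.0% and 23.2%). Spock2, a matrix proteoglycan that regulates membrane-type Mmp activity, fell from 56.0 ± 11.3 FPKM (SD, n = 2) in OE normal lung to 3.26 ± 3.43 FPKM (SD, n = 3) in tumors (log2 difference -4.02, SE 0.59, adjusted p = 0.00336). Fbln1, a cofactor of Adamts1, was at 0.565 ± 0.414 FPKM (SD, n = 3) in tumors and 12.9 ± 2.64 FPKM (SD, n = 2) in OE normal lung (-3.17, SE 0.25, adjusted p = 4.21e-04). Tspan15, a tetraspanin that escorts Adam10, fell by 2.11 (SE 0.28, adjusted p = 0.00248), while Adam10 itself was not called with all libraries. Pcolce, an enhancer of procollagen processing, fell by 2.46 (SE 0.61, adjusted p = 0.0218), a call lost without tumor 3 or either OE normal library (adjusted p from 0.0646 to 0.119). Reck, a membrane inhibitor of Mmp2, Mmp9 and Mmp14 that was picked after its values were seen, was at 2.18 ± 0.600 FPKM (SD, n = 3) in tumors, 11.9 ± 0.890 FPKM (SD, n = 2) in OE normal lung and 15.9 ± 0.932 FPKM (SD, n = 2) in WT lung, and fell by 2.03 (SE 0.18, adjusted p = 6.36e-04). The proprotein convertases Furin and Pcsk6, picked in the same way, remove pro-domains. Furin was at 53.8 ± 11.3 FPKM (SD, n = 3) in tumors and 26.4 ± 4.51 FPKM (SD, n = 2) in OE normal lung (0.99, SE 0.21, adjusted p = 0.0131, lost without OE normal 2 at 0.0950), and Pcsk6 at 10.6 ± 1.75 FPKM (SD, n = 3) and 3.76 ± 0.712 FPKM (SD, n = 2) (1.29, SE 0.18, adjusted p = 0.00268).

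Among 32 known or proposed membrane substrates of Adam proteases, 28 were tested, of which 3 were higher and 11 lower against OE normal lung (median -0.51) and 2 and 10 against WT lung (median -0.54), beside the same shares of all genes. Called genes with large differences were Cdh5 (VE-cadherin, -3.02, SE 0.20, adjusted p = 3.36e-04), the Notch ligand Dll1 (-2.80, SE 0.32, adjusted p = 0.00139) and Vcam1 (-2.10, SE 0.19, adjusted p = 6.16e-04). Cdh5 and Vcam1 are known from endothelium, whose markers were lower as given for the Timp genes. Among 25 matrix substrates, 22 were tested, of which 5 were higher and 2 lower against OE normal lung (median -0.17) and 4 and 3 against WT lung (median -0.23), beside 13.1% and 24.9%, and 15.0% and 23.2%, of all genes. Vcan (versican), the substrate of several Adamts enzymes, rose from 1.05 ± 0.208 FPKM (SD, n = 2) in OE normal lung to 13.9 ± 2.80 FPKM (SD, n = 3) in tumors (2.85, SE 0.20, adjusted p = 3.37e-04), where Adamts8 and Adamts15 fell, Adamts1 and Adamts9 were not called with all libraries and Adamts4, below the minimum, was at 0.755 to 2.99 FPKM against 0.110 to 0.180 FPKM in the normal lungs. Fn1 (fibronectin) rose from 28.0 ± 0.0303 FPKM (SD, n = 2) to 109 ± 44.8 FPKM (SD, n = 3) (1.85, SE 0.31, adjusted p = 0.00512). Lamb3 (a laminin chain of epithelial basement membranes) rose by 2.90 (SE 0.61, adjusted p = 0.0125), a call lost without OE normal 1 or 2 (adjusted p = 0.0504 and 0.0897). Vwf (von Willebrand factor), an endothelial product, fell by 2.65 (SE 0.13, adjusted p = 2.52e-04).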

How the data were processed

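Each library had 1 deposited table pairing gene symbols with FPKM values. The submitters' processing notes name TopHat2, TopHat, Cufflinks 2.0.0 and the mouse build mm9, and the authors' unit was taken to be FPKM because Cufflinks writes it and the values fit it. Annotation, normalization option, strand setting and read totals were not found in the labels, so counting error could not be set beside single values, and a value of 0 can be a failed estimate. Of 22474 rows 27 with a date in place of a symbol were left out.

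After a transform to log2(FPKM + 1) without further scaling, genes at 1 FPKM or higher in 2 or more of 7 libraries were fitted with limma 3.58.1 (R 4.3.3) using its eBayes step with trend, in 3 groups that share 1 estimate of the spread. Tests were 2-sided with Benjamini-Hochberg adjustment over all tested genes. The procedure was tested on simulated data.

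The members and lists were chosen with earlier results of these data known. Full values were given for every Timp, members called in a tumor comparison with a group mean of at least 5 FPKM, members with a group mean of at least 10 FPKM and members called between the normal groups. From each list, up to 4 called genes with the largest difference from OE normal lung and a mean of at least 5 FPKM were named, of which 1 is not reported here. Other members are said to be added. RefSeq tables of GRCm38.p6 gave gene order, overlaps and start regions, found for 49 of the 79 members, and no coordinates of the authors' build were used. Protein sequences were not used here.

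As alternatives, each library was left out in turn, the replicate number entered as a block, or only the groups compared were fitted. Libraries were rescaled by median of ratios, to TPM or by quantiles, the pseudocount was set to 0.1, and the filter was dropped or raised to 5 FPKM. Figures were drawn with Python 3.11.15, pandas 2.3.3 and matplotlib 3.10.9. Marker sums without a list's most abundant gene were added after the values were seen.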

Additional observations from a re-analysis of the deposited data

How the results depend on the processing

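Across 15 alternatives, all 18 members called lower and all 5 called higher against OE normal lung kept their sign except Adam11 and Adam1a, which stood at 0.10 and 0.00 under quantile normalization. Against WT lung all 20 called members kept theirs. Of 23 and 20 calls, 13 and 14 passed the threshold in every alternative in which they were tested. Against OE normal lung, 9 members were higher with median-of-ratios scaling, 8 with TPM and 9 with quantile normalization, and a filter at 5 FPKM, which tests fewer genes, left 3 higher and 10 lower of 25. Against WT lung that filter left 8 lower. Leaving out 1 library gave 4 to 6 higher and 10 to 21 lower against OE normal lung, with 11 lower without OE normal 1 and 10 without OE normal 2. Against WT lung it gave 3 to 7 higher, 3 without WT 2, and 11 to 20 lower. Between OE normal and WT lung it gave 0 to 2 higher and 0 to 1 lower.

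Some differences that were not called changed sign. Under median-of-ratios scaling this was Adam10 at 0.03 and Adamts1 at 0.13 against OE normal lung. Rescaling to TPM moved Adam17 to -0.08 against OE normal lung and Adam10 to -0.09 against WT lung. When libraries were left out, the lowest values of Mmp15 were -0.12 and -0.28 and those of Timp1 -0.10 and -0.05, all without tumor 1, and their highest 0.62 and 0.46 without tumor 3 and 0.78 and 0.82 without tumor 2. Adam10 against WT lung ranged from -0.14 without tumor 1 (-0.05 without WT 2) to 0.12, Adamts9 against WT lung from -0.28 without WT 2 to 0.66, and Adamts1 against OE normal lung from -0.45 to 0.35 without OE normal 2. Adam11 was at 0.27 against WT lung with quantile normalization. The cause was not tested.

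With the replicate number as a block, 5 members were higher and 13 lower against OE normal lung and 5 and 13 against WT lung. Lost were the limma calls of Adam11, Adam1a, Adamts10 (adjusted p = 0.0824), Mmp2 and Mmp17 (0.0811) against OE normal lung. Against WT lung those of Mmp23 (0.0530), Mmp17 (0.113) and Adam17 (0.115) were lost. Among the listed genes, Pcolce (0.0618), Lamb3 (0.0549) and Furin (0.0742) lost their calls against OE normal lung. Deviations of same-numbered libraries correlated between -0.029 and 0.034, so the numbers were not taken to pair samples. With 2 or 3 libraries a group, single calls rest on few values. FPKM carry no read totals, so members near 0 (Timp4 in tumors, Adamts18 in normal lung) have no counting error, and their log2 differences depend on the pseudocount.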
